A study of Mus musculus with 16 samples.

Results

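The Fc receptors described here are 6 genes, Fcgr1, Fcgr2b, Fcgr3, Fcgr4, Fcer1g and Fcgrt, taken by name from the probe sets of an Affymetrix Mouse Gene 1.0 ST array that carry a single gene symbol. Where a gene had several such probe sets the one with the highest mean was used. Of the 6 genes, 5 were found, out of 19938 genes measured, and Fcgrt is named by no single-symbol probe set here, so its level is not analysed. The 16 arrays came from 8 mice of strain B6, and every mouse, control or knockout, carried 1 Zbtb46 allele with GFP (Zbtb46 GFP/+). The mice were Ciita +/+ (wild type, WT) or Ciita -/- (knockout, KO), lacking the transactivator that drives MHC class II genes. Each mouse gave 1 array of CD24+ and 1 array of CD172a+ dendritic cells (DCs), the surface markers by which type 1 (cDC1) and type 2 (cDC2) classical DCs are separated. In 4 mice these cells were sorted from the resting spleen. In the other 4 they were sorted from bone marrow grown for 9 days in 5% Flt3l, the growth factor of DCs, and then activated with gamma interferon followed by LPS for 4 hours. The labels give the time in gamma interferon as 16 hours in 1 place and 22 hours in another. Each of the 8 groups of tissue, subset and genotype thus held 2 arrays from 2 mice, and no cultured group without activation is among the samples, so growth in culture, activation and array processing cannot be told apart. The ages of the mice and the deleted part of Ciita are not given in the sources used here.

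Fc receptors bind the constant end of antibodies and so link antibody-coated antigen to the cell that takes it up. Fcgr1 (the high-affinity IgG receptor), Fcgr3 and Fcgr4 (low to medium affinity) are activating receptors that reach the cell surface with the common gamma chain encoded by Fcer1g, whose ITAM motif recruits the kinase Syk. Fcgr2b is the inhibitory IgG receptor, whose ITIM motif recruits the phosphatase encoded by Inpp5d, and Fcgrt encodes the neonatal receptor that recycles IgG inside cells. In DCs the balance of activating and inhibitory receptors is known to set how immune complexes drive maturation and antigen presentation.

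Fcgr2b, Fcgr4, Fcgr3 and Fcer1g lie on mouse chromosome 1, Fcgr1 lies on chromosome 3 and Fcgrt on chromosome 7. The 250 bases before the start sites of Fcgr1, Fcgr2b and Fcgr4 are shown because Fcgr2b fell furthest of the members in culture and the subset step of Fcgr1 and Fcgr4 turned its direction between tissues. The sequences are RefSeq's on build GRCm38.p6, written 5′ to 3′ on the strand of the gene, and span chr3:96293970-96294219 (minus strand) for Fcgr1, chr1:170976072-170976321 (minus strand) for Fcgr2b and chr1:171018676-171018925 (plus strand) for Fcgr4. Capitals mark matches, on either strand, to 4 motifs.
Fcgr1: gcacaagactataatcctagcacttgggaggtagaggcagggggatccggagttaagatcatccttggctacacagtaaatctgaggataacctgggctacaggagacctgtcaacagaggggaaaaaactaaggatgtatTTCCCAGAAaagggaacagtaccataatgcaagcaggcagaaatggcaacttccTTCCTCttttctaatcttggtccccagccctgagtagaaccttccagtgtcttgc
Fcgr2b: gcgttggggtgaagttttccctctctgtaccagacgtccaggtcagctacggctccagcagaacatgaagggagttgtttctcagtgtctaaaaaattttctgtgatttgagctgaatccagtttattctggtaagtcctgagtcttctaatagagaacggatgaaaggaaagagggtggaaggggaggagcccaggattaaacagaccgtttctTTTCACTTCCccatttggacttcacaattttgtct
Fcgr4: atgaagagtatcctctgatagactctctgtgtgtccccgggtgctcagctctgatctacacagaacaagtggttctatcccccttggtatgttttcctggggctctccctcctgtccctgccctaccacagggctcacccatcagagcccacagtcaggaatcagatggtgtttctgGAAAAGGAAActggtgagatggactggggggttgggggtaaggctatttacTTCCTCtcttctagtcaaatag
The motifs searched were the gamma interferon activated site TTCNNNGAA, the PU.1 box GAGGAA, the ETS-IRF composite (GGAA, any 2 bases, GAAA) and the core of the interferon-stimulated response element (GAAA, any 2 bases, GAAA). Matches could share bases with each other, and the motifs were chosen after these sequences had been seen. Fcgr1 held TTCCCAGAA at 109 to 101 bases before its start and a PU.1 box on the opposite strand at 55 to 50 bases. Fcgr2b held the composite on the opposite strand, as TTTCACTTCC at 35 to 26 bases. Fcgr4 held GAAAAGGAAA at 73 to 64 bases and a PU.1 box on the opposite strand at 22 to 17 bases. The windows of Fcer1g and Fcgrt, not shown, held none of the 4 motifs, and those of Fcgr3 held only a PU.1 box. Of 32851 such windows in the RefSeq table, 7.0% held the activated site, 23.3% the PU.1 box, 2.3% the composite and 3.0% the response element core. These matches are letters in a window, and no binding was measured.

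The values are log2 signals as deposited. The median probe set of an array lay at 7.29 to 7.32 in the spleen set but at 6.85 to 6.92 in the culture set. For that reason culture against spleen is given relative to the median gene, meaning with the median change over all genes subtracted. Defining markers separated the subsets as labelled in the spleen, and in part in culture. Xcr1, the chemokine receptor of cDC1, was at 11.92 to 12.17 in spleen CD24+ cells and 6.48 to 6.82 in spleen CD172a+ cells, and at 9.58 to 10.87 against 6.27 to 6.66 in culture. Sirpa, which encodes CD172a and served in the sort, was at 12.58 to 12.70 in spleen CD172a+ and 11.07 to 11.37 in culture CD172a+ cells. Of 15 listed cDC2 markers, 13 were lower and 1 higher in CD24+ than in CD172a+ cells of the spleen, but 5 were lower and 2 higher in culture. The cDC2 lectin gene Clec4a4 was at 10.53 to 10.76 in spleen CD172a+ and 4.96 to 5.63 in culture CD172a+ cells, and Irf8, the cDC1 transcription factor, overlapped between the cultured subsets at 13.32 to 13.58 in CD24+ and 13.37 to 13.48 in CD172a+ cells. Irf8 is also among the gamma interferon response genes listed here, and the part of that treatment in its level was not tested. Of 14 listed cDC1 markers, 13 were higher and 0 lower in CD24+ cells of the spleen, and 11 higher and 1 lower in culture. Of all genes, 29.1% and 24.9% were called. The cultured CD172a+ cells thus did not carry the whole cDC2 marker profile of their label. The subset difference of 13 of the 15 cDC2 markers changed between the tissues by the test of that change, against 28.2% of all genes. The cDC1 list changed too, for of its 14 markers the CD24+ minus CD172a+ difference was lower in culture for 11 and higher for 3.

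In the spleen, the activating receptors and their shared chain were lower in CD24+ than in CD172a+ cells, while the inhibitory receptor was slightly higher. Fcer1g was 3.62-fold lower in CD24+ cells, Fcgr4 2.82-fold, Fcgr3 2.60-fold and Fcgr1 1.33-fold, and Fcgr2b was 1.26-fold higher. All 5 measured members passed the threshold in this comparison, against 29.1% of all genes. The members were few and differed in size, and the median difference over them was -1.38 on the log2 scale, against 0.03 over all genes.

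Fcer1g read 11.47 and 11.42 in the WT and 11.11 and 10.74 in the KO arrays of spleen CD24+ cells, and 13.03, 13.05, 13.05 and 13.04 in the WT and KO arrays of spleen CD172a+ cells. All CD172a+ arrays were above all CD24+ arrays with an SD of 0.006, near the top of the values in the table, whose highest is 14.55. The difference was -1.86 ± 0.20 (SE, CD24+ minus CD172a+, 4 mice, limma adjusted p = 1.70e-05).

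Fcgr3, an activating receptor shared with macrophages, neutrophils and natural killer cells, read 7.21 and 7.50 in WT and 6.92 and 7.64 in KO arrays of CD24+ cells, and 8.78, 9.09, 8.11 and 8.80 in the same order in CD172a+ cells. The subsets did not overlap, and the difference was -1.38 ± 0.17 (adjusted p = 4.51e-05). Fcgr4, the activating receptor of monocytes, macrophages and neutrophils, read 8.82 and 8.26 in WT and 8.07 and 8.20 in KO arrays of CD24+ cells, against 10.26, 10.16, 9.38 and 9.52 in CD172a+ cells. It too was lower in every CD24+ array than in every CD172a+ array (-1.49 ± 0.33, adjusted p = 0.00408).

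Fcgr1 read 6.68, 6.86, 6.71 and 6.88 in the WT and KO arrays of spleen CD24+ cells and 7.06, 7.11, 7.12 and 7.49 in CD172a+ cells. The subsets did not overlap, yet the step was small at -0.41 ± 0.12 (adjusted p = 0.0224). With WT arrays alone it was -0.31 (adjusted p = 0.273), and leaving out any 1 of 5 arrays also put it above the threshold (adjusted p = 0.0524 to 0.0977). Fcgr2b, the inhibitory receptor, read 10.36, 10.31, 10.42 and 10.08 in CD24+ cells and 9.89, 9.95, 9.94 and 10.08 in CD172a+ cells. It was higher in CD24+ cells in 4 of 4 mice, by 0.005 to 0.48 within a mouse (0.33 ± 0.08, adjusted p = 0.00685).

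Some markers of other cells differed between the spleen subsets, in both directions. The 18 measured macrophage and monocyte markers averaged 7.78 to 7.99 in CD24+ and 8.25 to 8.81 in CD172a+ arrays. Of these, 9 were lower and 1 higher in CD24+ cells, against 29.1% of all genes called. Among the lower were Adgre1 at -4.14 and Csf1r at -1.99, a receptor that some DCs also express. The 11 B cell markers averaged 6.84 to 7.02 and 7.28 to 7.49, with 5 lower and 1 higher in CD24+ cells. Their median difference was only -0.01. Of the 14 neutrophil markers 4 were higher and 2 lower in CD24+ cells, with a median difference of 0.49. The neutrophil markers averaged 7.96 in KO replicate 2 of CD24+ cells and 6.38 to 6.94 in the other 3 arrays. Of the CD24+ spleen arrays, that array had the highest Fcgr3 (7.64) and Fcgr1 (6.88) values and the lowest Fcer1g (10.74) and Fcgr2b (10.08) values. Its Fcgr4 value (8.20) lay between those of the others. Without that array the difference in Fcgr3 was -1.56. The part of such cells in the receptor levels was not tested. In sorted cells measured in bulk, a smaller share of expressing cells and less RNA per cell cannot be told apart.

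**Figure D1:**
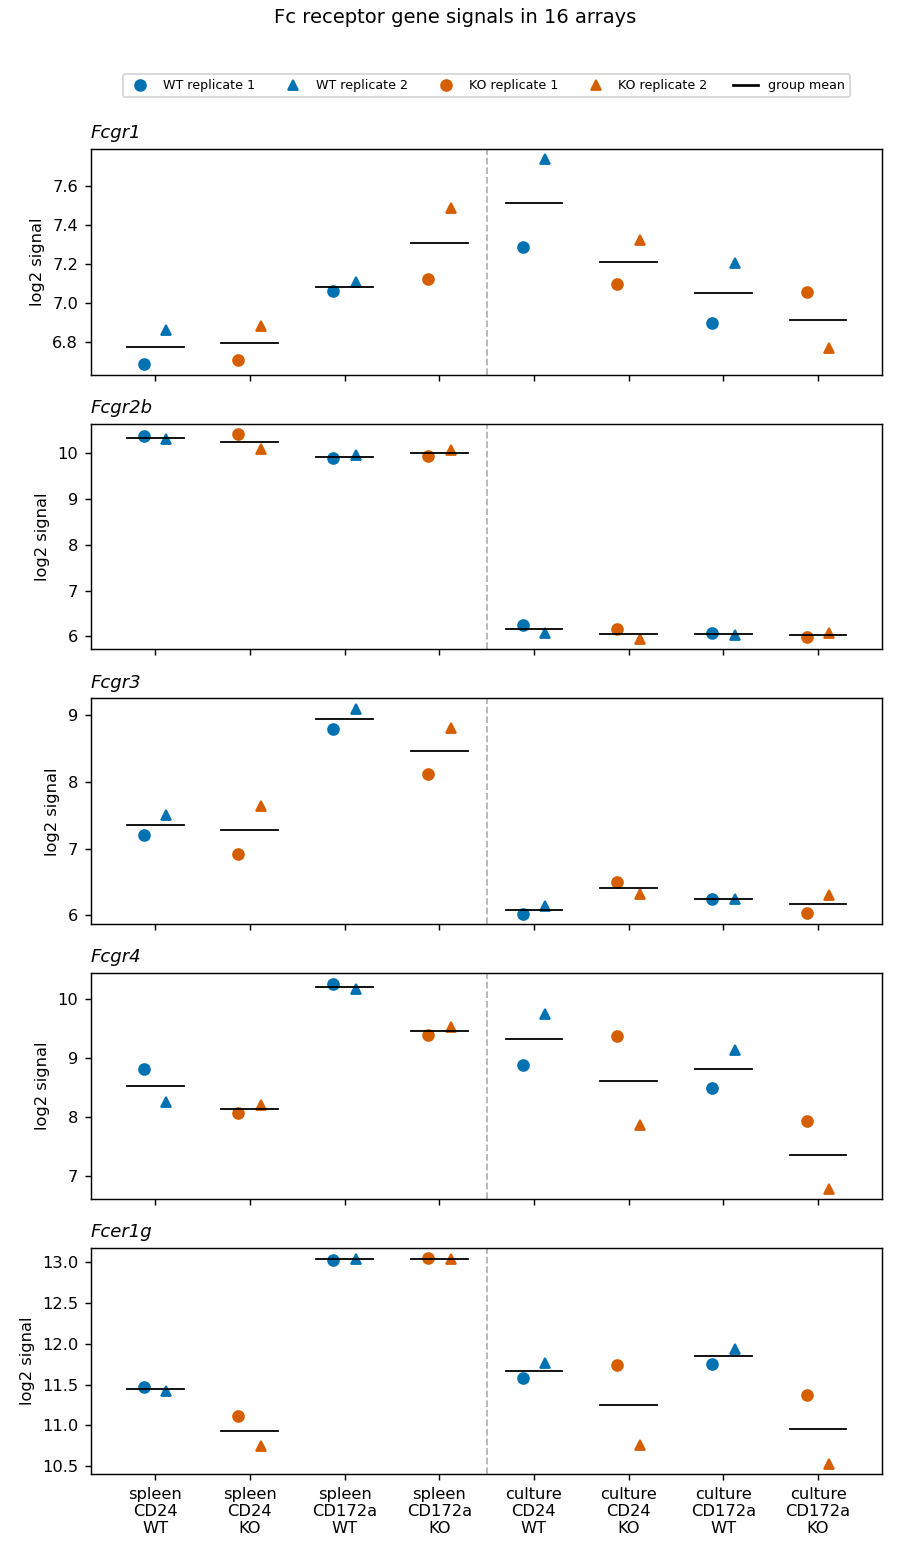
Log2 signal of the 5 measured Fc receptor genes in each of the 16 arrays, grouped by tissue, subset and genotype, with 1 point per array. Fcgr2b lies at 9.89 to 10.42 in spleen and 5.94 to 6.24 in culture, and Fcer1g is highest in the 4 spleen CD172a+ arrays.

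In activated culture the subset differences of Fcer1g and Fcgr3 were near 0 and did not pass, and those of Fcgr1 and Fcgr4 pointed the other way from the spleen. Of the 5 members, 1 was called, Fcgr1, against 24.9% of all genes. The median difference was 0.07, against -0.03 over all genes.

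Fcer1g read 11.57 and 11.76 in WT and 11.74 and 10.75 in KO arrays of cultured CD24+ cells, and 11.76, 11.94, 11.37 and 10.53 in CD172a+ cells. The subsets overlapped (0.06 ± 0.20, adjusted p = 0.893). The culture KO mouse with replicate number 2 was lowest in both subsets. Fcgr3 stayed between 6.02 and 6.50 in all 8 culture arrays and Fcgr2b between 5.94 and 6.24, with differences of 0.04 ± 0.17 (adjusted p = 0.919) and 0.07 ± 0.08 (adjusted p = 0.646). At such low signal a step may not be detectable.

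Fcgr4 read 8.88 and 9.75 in WT and 9.37 and 7.87 in KO arrays of cultured CD24+ cells, and 8.50, 9.14, 7.94 and 6.79 in CD172a+ cells. The subsets overlapped across mice, but within each of the 4 mice the CD24+ array was the higher, by 0.38 and 0.61 in the WT and by 1.43 and 1.08 in the KO mice. The mean difference of 0.87 ± 0.33 did not pass with arrays taken as independent (adjusted p = 0.0757). Leaving out 1 array gave 0.50 to 1.25, and it passed without CD24+ KO replicate 2 (adjusted p = 0.00377), CD172a+ KO replicate 1 (adjusted p = 0.0272) or CD24+ WT replicate 1 (adjusted p = 0.0478). With the mouse as a replicate block its SE was 0.09 and it passed (adjusted p = 1.05e-04).

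Fcgr1 read 7.28, 7.74, 7.10 and 7.32 in cultured CD24+ cells (WT, then KO) and 6.89, 7.20, 7.06 and 6.77 in CD172a+ cells. It was higher in CD24+ cells in 4 of 4 mice, by 0.04 to 0.56 (0.38 ± 0.12, adjusted p = 0.0368), though the arrays overlapped. The call was lost in 9 of 26 alternative analyses, with adjusted p between 0.00847 and 0.238 over all of them.

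The change of the subset step between tissues was itself tested. It was larger than the spread between arrays for 4 of 5 members, against 28.2% of all genes. Culture minus spleen, the step from CD172a+ to CD24+ cells changed by 2.37 ± 0.47 for Fcgr4 (adjusted p = 0.00216), 1.91 ± 0.29 for Fcer1g (adjusted p = 3.05e-04), 1.42 ± 0.24 for Fcgr3 (adjusted p = 7.16e-04) and 0.79 ± 0.17 for Fcgr1 (adjusted p = 0.00407). These calls held in all 25 alternatives run for each of these genes. Fcgr2b changed by -0.26 ± 0.11 (adjusted p = 0.101), and passed in 2 of its 25 alternatives. Fcgr4 and Fcgr1 were lower in the CD24+ array of all 4 spleen mice and higher in the CD24+ array of all 4 culture mice. Fcgr3 lay at only 6.02 to 6.50 in culture, where a step may not be detectable. The part of that low signal in its change was not tested.

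**Figure D2:**
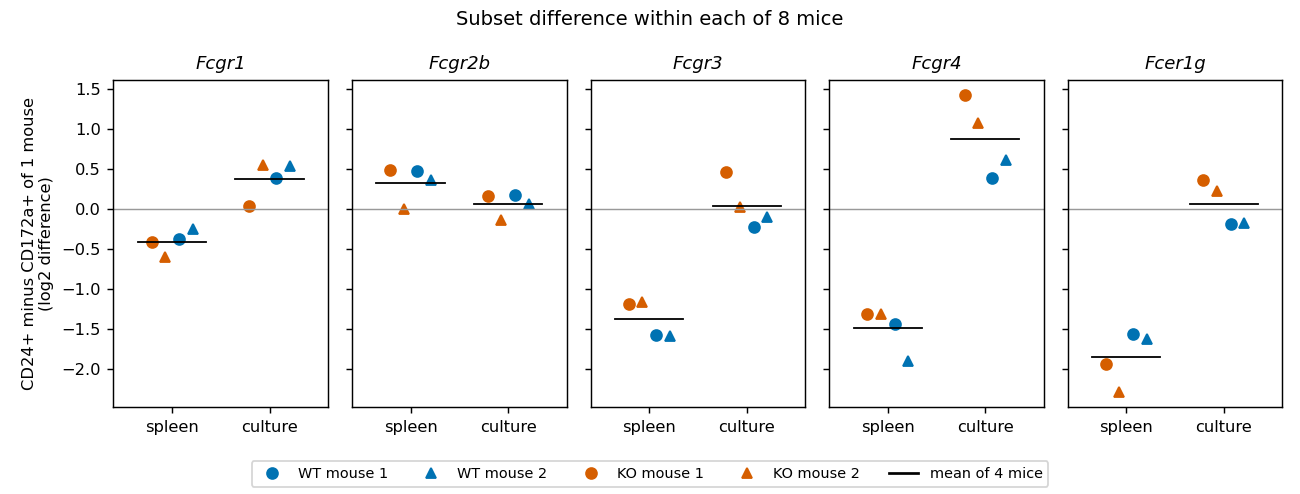
CD24+ minus CD172a+ difference in log2 signal of each Fc receptor gene within each mouse, with spleen and culture mice shown apart. For Fcgr4 the spleen mice lie at -1.90 to -1.31 and the culture mice at 0.38 to 1.43, whereas Fcgr2b differs little in either tissue.

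Cells from activated culture had far less signal for the inhibitory receptor Fcgr2b than spleen cells of the same subset, while the activating receptors and Fcer1g took different courses in the 2 subsets. The median change over all genes, culture minus spleen, was -0.34 in CD24+ and -0.28 in CD172a+ cells in the deposited values. Changes in this and the next paragraphs are relative to that median change, written as relative to the median gene, unless stated. With deposited values, 79.1% of all genes were called in CD24+ cells (2750 higher, 13012 lower) and 76.8% in CD172a+ cells (3312 higher, 12000 lower). With each array centred on its own median the shares were 76.6% (9390 higher, 5882 lower) and 78.9% (9842 higher, 5890 lower). A call in this comparison is therefore the rule rather than the exception, and the sizes carry more than the calls.

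Fcgr2b averaged 10.29 ± 0.15 (SD, n = 4 arrays) in spleen CD24+, 9.96 ± 0.08 in spleen CD172a+, 6.10 ± 0.13 in culture CD24+ and 6.04 ± 0.04 in culture CD172a+ cells. All spleen arrays were above all culture arrays, and the cultured subsets did not differ beyond their spread. Relative to the median gene Fcgr2b was lower in culture by -3.85 in CD24+ and -3.65 in CD172a+ cells, or 14.4-fold and 12.5-fold. The culture signal of 5.94 to 6.24 lay not far above the lower quartile of these arrays (5.60 to 5.68), and no detection call was used. If that signal is background, both folds are lower bounds. Of 19938 genes, 24 fell further than Fcgr2b in CD24+ cells and 99 in CD172a+ cells. With deposited values the differences were -4.19 ± 0.08 (adjusted p = 8.26e-13) and -3.92 ± 0.08 (adjusted p = 7.77e-13).

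Fcgr3 averaged 8.70 ± 0.41 in spleen CD172a+, 7.32 ± 0.32 in spleen CD24+, 6.25 ± 0.21 in culture CD24+ and 6.21 ± 0.12 in culture CD172a+ cells, with no overlap between tissues. It was lower in culture by -0.74 relative to the median gene in CD24+ cells and by -2.21 in CD172a+ cells (deposited values -1.07 ± 0.17, adjusted p = 7.65e-05, and -2.49 ± 0.17, adjusted p = 3.10e-08). The parts of Fcgr2b and Fcgr3 outside the cell are closely similar in sequence, and whether their probe sets share signal was not tested.

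Fcer1g was highest in spleen CD172a+ cells at 13.04 ± 0.01, and the other settings, 11.46 ± 0.48 in culture CD24+, 11.40 ± 0.63 in culture CD172a+ and 11.19 ± 0.34 in spleen CD24+ cells, did not differ beyond their spread in the deposited values. Relative to the median gene, culture minus spleen was -1.37 in CD172a+ and 0.61 in CD24+ cells. The lower level in CD172a+ cells passed with deposited values (-1.64 ± 0.20, adjusted p = 9.30e-06). The difference in CD24+ cells did not (0.27 ± 0.20, adjusted p = 0.233), and passed with centred arrays (0.73 ± 0.21, adjusted p = 0.00724). It also passed with deposited values without KO replicate 2 of cultured CD24+ cells (0.52, adjusted p = 0.0104), and leaving out 1 array gave 0.03 to 0.52.

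Fcgr4 averaged 9.83 ± 0.44 in spleen CD172a+, 8.97 ± 0.82 in culture CD24+, 8.34 ± 0.33 in spleen CD24+ and 8.09 ± 1.00 in culture CD172a+ cells. In CD172a+ cells every culture array was below every spleen array (-1.46 relative to the median gene, deposited -1.74 ± 0.33, adjusted p = 3.77e-04). In CD24+ cells the tissues overlapped. There the change was 0.97 relative to the median gene, and it passed with centred arrays (1.09 ± 0.34, adjusted p = 0.0106) but not with deposited values (0.63 ± 0.33, adjusted p = 0.0956). Leaving out 1 array gave deposited differences of 0.26 to 1.01, which passed without WT replicate 1 (0.85, adjusted p = 0.0472) or KO replicate 2 (1.01, adjusted p = 0.00484) of cultured CD24+ cells.

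Fcgr1 averaged 7.36 ± 0.27 in culture CD24+, 7.19 ± 0.20 in spleen CD172a+, 6.98 ± 0.19 in culture CD172a+ and 6.78 ± 0.10 in spleen CD24+ cells, and each level overlapped its neighbour in this order. In CD24+ cells all culture arrays were above all spleen arrays, by 0.91 relative to the median gene (deposited 0.58 ± 0.12, adjusted p = 7.88e-04). In CD172a+ cells the change was 0.06 relative to the median gene, and its sign depended on the scaling, at -0.21 ± 0.12 with deposited values (adjusted p = 0.125) and 0.21 with centred arrays.

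Macrophage and monocyte markers averaged 6.74 to 6.85 in the CD24+ and 6.48 to 6.59 in the CD172a+ arrays of culture in deposited values. With centred arrays 9 of the 18 were lower than in the spleen in CD24+ cells, among them Cd14 (-2.92) and Apoe (-2.29). Another 5 were higher, among them Lyz2 (0.89) and Adgre1 (0.86). In CD172a+ cells 13 were lower and 2 higher. Of all genes, 76.6% in CD24+ and 78.9% in CD172a+ cells were called with centred arrays. B cell markers averaged 5.97 to 6.12 over the culture arrays of both subsets. Their part in the lower Fcgr2b and Fcgr3 values was not tested. Among 18 measured genes of the gamma interferon response, which includes guanylate-binding proteins and immunity-related GTPases, 16 were higher and 1 lower in culture in each subset with centred arrays (14 higher in each, with 1 lower in CD24+ and 2 in CD172a+ cells, with deposited values). Iigp1 was higher by 6.18 in CD24+ and 7.24 in CD172a+ cells relative to the median gene, and Gbp5 by 4.81 in each.

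Loss of Ciita was compared within each tissue and subset, with 2 arrays against 2. No Fc receptor gene passed the threshold in any genotype comparison. Over all mice Fcgr4 had the largest difference of the members, 0.83 lower on the log2 scale in KO mice, followed by Fcer1g with 0.46, and neither passed. The largest single difference was that of Fcgr4 in cultured CD172a+ cells.

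The labels were first checked against Ciita itself. Its probe set read 10.15 and 10.62 in WT and 8.35 and 7.17 in KO arrays of cultured CD172a+ cells, and 10.51 and 10.85 against 9.70 and 8.14 in cultured CD24+ cells. In the spleen it read 10.97 to 11.40 in WT and 10.90 to 11.28 in KO arrays, which overlapped, so the spleen arrays labelled KO could not be told by this probe set. Where its probes lie relative to the deleted part is not known, and if outside, it checks nothing. Cd74, the class II invariant chain and a target of Ciita, was lower in the arrays labelled KO in all 4 settings (-0.64 and -0.83 in spleen CD24+ and CD172a+ cells, -0.55 and -0.58 in culture, SE 0.07, adjusted p = 1.94e-04 to 0.00739).

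In the comparison of cultured CD172a+ cells, where 0.0602% of genes were called, Fcgr4 differed by -1.46 ± 0.47 (KO minus WT, limma adjusted p = 0.567) and Fcer1g by -0.90 ± 0.29 (adjusted p = 0.567). Both KO arrays were below both WT arrays for these genes, as for 14.5% of all genes. KO replicate 2 was the lowest array of the series for both genes and for Ciita, and leaving it out brought Fcgr4 to -0.89 and Fcer1g to -0.47. Of the 9 measured receptors that pair with Fcer1g, 1 was called here, the lectin receptor Clec4e (-1.496 ± 0.21, adjusted p = 0.0201), against 0.0602% of all genes. The median difference of that list was -0.20, against 0.02 over all genes. The sister adaptor Tyrobp differed by -0.78 ± 0.24 (adjusted p = 0.563).

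In cultured CD24+ cells, where 0.0953% of genes were called, the genotypes overlapped for Fcgr4 (-0.70 ± 0.47, adjusted p = 0.844) and Fcer1g (-0.42 ± 0.29, adjusted p = 0.852). Fcgr3 was the member with both KO arrays above both WT arrays (0.33 ± 0.24, adjusted p = 0.863), as were 15.3% of all genes. The KO mice read 9.37 and 7.87 for Fcgr4 and 11.74 and 10.75 for Fcer1g, further apart than the means of the genotypes. Without KO replicate 1 the differences were -1.45 (adjusted p = 0.0685) and -0.91 (adjusted p = 0.0503), and 1269 genes were called in place of 19. Without KO replicate 2 both turned sign, to 0.05 (adjusted p = 0.992) and 0.07 (adjusted p = 0.976).

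In spleen CD24+ cells, where 0.0602% of genes were called, both KO arrays were below both WT arrays for Fcgr4 (-0.40 ± 0.47, adjusted p = 1.0) and Fcer1g (-0.52 ± 0.29, adjusted p = 1.0), as for 16.4% of all genes. In spleen CD172a+ cells, where 0.0802% were called, the same held for Fcgr4 (-0.76 ± 0.47, adjusted p = 1.0) and 19.5% of all genes, and Fcgr1 was higher in both KO arrays (0.22 ± 0.17), as were 18.2%. Fcgr3 differed by -0.48 ± 0.24 there (adjusted p = 0.976), with overlap between the genotypes, and Fcer1g by 0.01. The array fit shares 1 spread per gene over all 8 groups, so the SE of a gene is the same in each setting. For Fcgr4 the SD was 0.10 in KO and 0.07 in WT arrays of spleen CD172a+ cells, but 0.455 to 1.061 in the cultured groups. Fcgr2b differed by at most 0.11 between genotypes in any setting.

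Averaged over the 2 arrays of each mouse, with 4 mice per genotype and tissue as a factor, Fcgr4 differed by -0.83 ± 0.29 (adjusted p = 0.856) and Fcer1g by -0.46 ± 0.18 (adjusted p = 0.856). This comparison called 0.0351% of genes, and Fcgr1, Fcgr2b and Fcgr3 differed by -0.05, -0.03 and -0.07. Mouse means of Fcgr4 were 9.54 and 9.21 in WT against 8.73 and 8.86 in KO spleens, and 8.69 and 9.45 in WT against 8.65 and 7.33 in KO cultures. Both KO mice were thus below both WT mice in each tissue, though closely so in culture, where the nearest means were 8.65 and 8.69. Fcer1g was separated in the same way, and so were 2.98% of all genes. Without the culture KO mouse 2 the differences were smaller, at -0.52 for Fcgr4 (adjusted p = 0.491) and -0.24 for Fcer1g (adjusted p = 0.428).

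Whether the subset step depended on genotype was tested on the difference between the 2 arrays of each mouse, where 0.0100% of genes were called. Fcgr3 in CD24+ minus CD172a+ cells was -1.58 and -1.59 in WT and -1.19 and -1.16 in KO spleens, and -0.22 and -0.10 in WT and 0.46 and 0.02 in KO cultures. Fcgr4 was -1.44 and -1.90 in WT and -1.32 and -1.31 in KO spleens, and 0.38 and 0.61 in WT and 1.43 and 1.08 in KO cultures. For both genes every KO mouse lay above every WT mouse of its tissue, as for 2.73% of all genes. The shifts were 0.40 ± 0.10 for Fcgr3 and 0.56 ± 0.13 for Fcgr4, and neither passed over all genes (limma adjusted p = 0.941 for each).

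**Figure D3:**
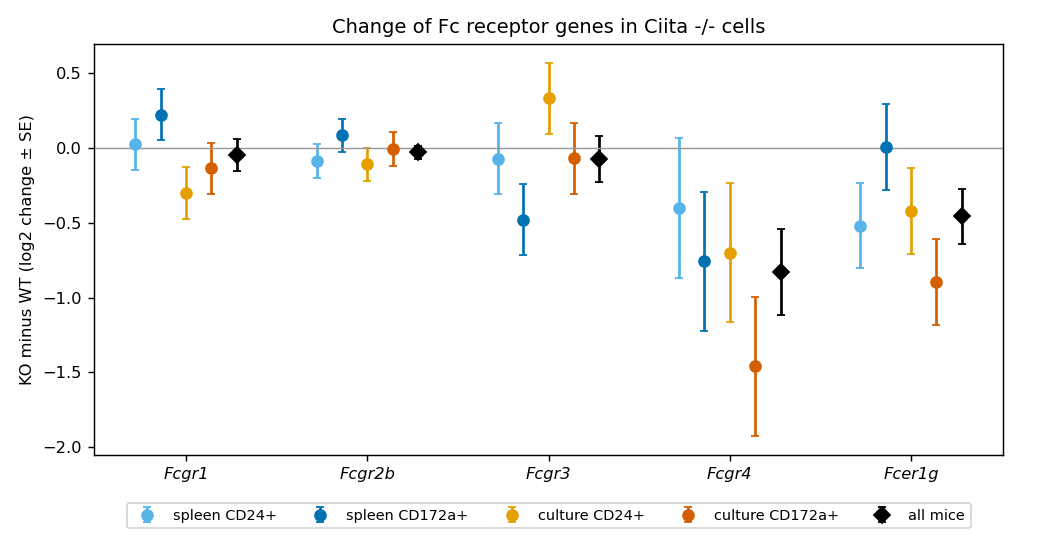
KO minus WT difference in log2 signal of each Fc receptor gene in the 4 settings and over all mice, with points for the estimate and bars for its SE. Fcgr4 lies below 0 throughout, at -0.40 to -1.46, and no estimate passed the threshold.

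Fcgr2b, Fcgr4, Fcgr3 and Fcer1g share a stretch of chromosome 1 with unrelated genes, and the change from spleen to culture was not common to it. Fcrla, a relative of the Fc receptors that stays inside the cell, lies beside Fcgr2b and was lower in culture by -4.24 in CD24+ and -0.95 in CD172a+ cells relative to the median gene. Its pattern in the spleen was the reverse of Fcgr3's, with 3.61 ± 0.13 more signal in CD24+ than in CD172a+ cells (adjusted p = 6.32e-10). The noncoding Gm10522, next after Fcgr2b, changed by -0.35 and -0.15. Between Fcgr3 and Fcer1g, Sdhc of the respiratory chain changed by -0.32 and -0.25, Apoa2 by 0.40 and 0.37 and Tomm40l by -0.80 and -0.85. Beyond Fcer1g, Ppox of haem synthesis changed by -1.36 and -1.28. The fall of Fcgr2b was thus larger than that of the measured genes on either side in CD172a+ cells, and in CD24+ cells only Fcrla fell further.

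**Figure D4:**
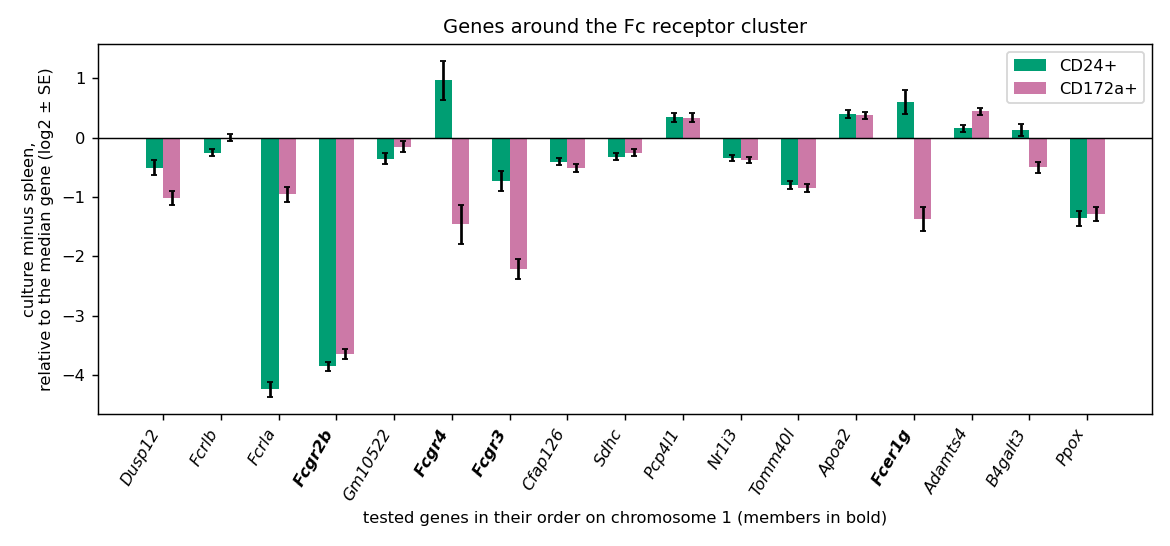
Culture minus spleen change in log2 signal, relative to the median gene, of the measured genes around the Fc receptors of chromosome 1 in their order along the chromosome, with CD24+ and CD172a+ cells shown apart. Fcgr2b at -3.85 and -3.65 stands below its neighbours except for Fcrla in CD24+ cells at -4.24, and Fcgr4 and Fcer1g change in opposite directions in the 2 subsets.

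The genes that work with the receptors were taken by role. The receptors that pair with Fcer1g for signalling were mostly lower in spleen CD24+ cells, as Fcer1g was. Of 9 measured, 7 were lower and 1 higher, against 29.1% of all genes called, with a median of -0.84, and among them the Dectin-2 gene Clec4n was at -2.78 ± 0.11 (adjusted p = 1.57e-09) and Lilra6 at -2.05 ± 0.23. In culture 2 were lower and 1 higher between subsets, a share near the 24.9% of all genes called, among them Clec4e at -1.78 ± 0.15 and Cd300c2 at 0.41 ± 0.12. Of the 3 other adaptors, Tyrobp, which serves many of the same cells, was -0.56 ± 0.17 in the spleen (adjusted p = 0.0286) and Cd247, the T cell receptor zeta chain, 0.20 ± 0.05.

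Of 23 measured genes of ITAM signalling, 10 were lower and 1 higher in spleen CD24+ cells, including Syk (-1.19 ± 0.09, adjusted p = 8.27e-07), the Src-family kinase gene Fgr (-1.78 ± 0.09), the adaptor gene Lcp2 (-1.21 ± 0.16) and Malt1 (-1.29 ± 0.10). In culture 11 were higher in CD24+ cells and 2 lower, including Vav1 (2.77 ± 0.14, adjusted p = 9.40e-08), Rac2 (1.25 ± 0.21) and Lcp2 (0.98 ± 0.16) on the higher side and Blnk (-1.78 ± 0.11) on the lower. The list's median difference was -0.18 in the spleen and 0.27 in culture, against 0.03 and -0.03 over all genes. The shares of all genes called were 29.1% and 24.9%.

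The list drawn up for ITIM signalling and other inhibition was mixed, against 29.1% of all genes called in the spleen and 24.9% in culture. Whether each of its genes, Ptprc and Ptpn11 among them, acts to inhibit in these cells was not tested. Of 13 genes, 6 were lower and 3 higher in spleen CD24+ cells, with the adaptor gene Sh2d1b1 at -4.09 ± 0.07 and the phosphatase gene Ptpn6 at -0.88 ± 0.09, and 6 were higher and 4 lower in culture, with Ptpn22 at 2.42 ± 0.25 and Ptprc, which encodes CD45, at 1.24 ± 0.19. Inpp5d, the phosphatase through which Fcgr2b acts, averaged 12.41 ± 0.08 and 12.11 ± 0.05 in spleen CD24+ and CD172a+ cells and 9.23 ± 0.37 and 7.58 ± 0.07 in the cultured ones. All spleen arrays were above all culture arrays, and relative to the median gene it was lower in culture by -2.85 and -4.25 (deposited -3.19 ± 0.09 and -4.53 ± 0.09, adjusted p = 2.46e-11 and 9.84e-13).

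Among 15 other Fc receptors and relatives, 4 were lower and 2 higher in spleen CD24+ cells, among them Cd300lf at -3.48 ± 0.08 and Cd22 at -2.45 ± 0.10 on the lower side. In culture 2 were lower and 0 higher (Fcrl1 at -0.71 ± 0.16 and Trim21, the cytosolic antibody receptor, at -0.65 ± 0.13), against 24.9% of all genes called in either direction and, at an unadjusted p below 0.05, 6667 genes. Fcgrt itself was not measured. Of the 12 genes listed as partners of its product or for trafficking, 5 were higher and 0 lower in spleen CD24+ cells (Rab11a at 0.67 ± 0.06, Pdia3 at 0.63 ± 0.10). In culture 3 were higher and 1 lower. Of all genes, 29.1% were called in the spleen and 24.9% in culture. Relative to spleen with centred arrays, 11 of the 12 were higher in cultured CD24+ and 10 in cultured CD172a+ cells, and 0 lower in either, whereas with deposited values 6 were higher and 2 lower in each. Of all genes, 76.6% and 78.9% were called with centred arrays, 9390 and 9842 of them higher. Tapbp, a listed gene that serves the loading of peptide on class I molecules, was higher by 1.92 and 2.10 relative to the median gene. Any part of it in handling the Fcgrt product was not tested.

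Likeness of pattern was described by Pearson's r over the 16 arrays after each tissue's mean was subtracted, among 14951 genes. The 16 arrays share 8 mice and the sort, so r has no test here. Fcgr4 was most like Pgm2 (0.96), Tyrobp (0.955) and Ccl3 (0.954), Fcer1g most like Stap1 (0.974), Ifitm2 (0.968) and Lst1 (0.967), and Fcgr3 most like Ehd1 (0.964), Rrad (0.96) and Itga9 (0.957). Fcgr1 was most like Icam2 (0.886), Slc25a2 (0.846) and Nr4a3 (0.842), and Fcgr2b most like Cysltr1 (0.887), Ggact (0.88) and Nat2 (0.873). Among the members r was 0.847 for Fcgr4 with Fcer1g, 0.747 for Fcgr3 with Fcer1g and -0.774 for Fcgr2b with Fcgr3. Fcgr2b and Fcgr3 varied little in culture, at 5.94 to 6.24 and 6.02 to 6.50, so their r rests mainly on the spleen arrays.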

How the data were processed

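The deposited table gives the authors' log2 signals, 1 per probe set, on 16 arrays. Background correction, normalization and summarization are not given in the sources used here, and their range (3.06 to 14.6) gave the log2 unit. Of 30177 probe sets, 21789 had 1 gene symbol, 1621 several and 6767 none. Symbols came from the platform annotation, updated through Entrez IDs. Tests used limma 3.58.1 in R 4.3.3 over 19938 genes: 1 mean per group over 16 arrays (8 residual and 3.95 prior degrees of freedom), or mouse means and mouse differences with tissue and genotype as factors. All tests were 2-sided, adjusted p-values are Benjamini-Hochberg values over all genes of a comparison, and 0.05 was the threshold. The fits were run on simulated data with independent arrays and 1 spread per gene, so mouse effects and unequal spreads between groups were not covered. The array fit treats the 2 arrays of a mouse as independent and shares 1 spread per gene over all 8 groups. Mice pair the subsets by design, and deviations of both arrays of a mouse from their group means correlated at -0.096 to 0.393 across genes. WT and KO mice with 1 number are different animals. Nothing says that the mice were processed apart, so p-values measure the spread between these arrays. Genes named beside the members are mostly called genes of each list with large changes, neighbours on chromosome 1 and the 3 most alike genes. Not every gene with a larger change in a list is named. Members and lists were chosen with earlier results of these data known. No detection calls were used, so signals near background were not told apart, and the number of arrays limits the precision.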

Additional observations from a re-analysis of the deposited data

Results flagged for a closer look

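The difference between CD24+ and CD172a+ cells changed between spleen and activated culture, by the interaction term of the limma fit, for Fcgr4 (2.37 ± 0.47), Fcer1g (1.91 ± 0.29), Fcgr3 (1.42 ± 0.24) and Fcgr1 (0.79 ± 0.17), each on the log2 scale. Their adjusted p-values were 0.00216, 3.05e-04, 7.16e-04 and 0.00407. The spleen cells were resting and the cultured cells activated, so tissue and activation cannot be told apart. Fcgr3 was at low signal in culture (6.02 to 6.50), and the part of this in its change was not tested.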

How the results depend on the processing

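The 55 results for the 5 members were recomputed under 1275 alternatives: 1244 kept direction and side of the threshold, 15 fell short of it, 16 passed it and 0 reversed. For the other genes named, 2854 of 2942 alternatives changed neither, 67 fell short, 15 passed and 6 reversed, all in culture minus spleen: with quantile normalization and with median centring Adamts4 became 0.24 and 0.28 and B4galt3 0.33 and 0.26 in CD24+ cells, and Fcrlb 0.23 and 0.15 in CD172a+ cells. Fcgr4 in cultured CD24+ against spleen CD24+ cells was 1.18 with quantile normalization.

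Counts of called genes moved by over 1.5 times as follows. Genotype calls became 21 and 25 in spleen CD24+ and CD172a+ cells with all probe sets, and 4 and 7 in cultured CD24+ and CD172a+ cells with arrays of that tissue only. Without the culture KO mouse 2, an alternative chosen after seeing the data, 11 were called in cultured CD24+ cells. A genotype by tissue term, also added later, gave 18 over all mice and 4 for genotype by subset. With WT arrays only, subset calls were 3548 in spleen and 3262 for the change between tissues. Leaving out 1 array or mouse gave genotype calls of 1 to 35 in spleen CD24+, 10 to 1269 in cultured CD24+, 7 to 45 in cultured CD172a+ cells, 4 to 11 over all mice and 1 to 2 for genotype by subset. No Fc receptor gene passed in any genotype alternative.

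With the mouse as a replicate block, subset calls were 6101 in spleen, 5258 in culture and 5939 for the change between tissues, and among the members it changed the call of Fcgr4 in culture. The replicate number within tissue as a block gave genotype calls of 9, 18, 16 and 12, and these numbers do not pair the mice.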
